A study of Mus musculus with 4 samples.

Results

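Tdrd7 and 6 genes beside it on mouse chromosome 4 were followed in lenses of Tdrd7 null mice and of wild type control mice. The 7 genes, Tdrd7, Tmod1, Tstd2, Ncbp1, Xpa, Anp32b and Nans, were chosen by position, within about 0.6 Mb of Tdrd7, out of the 10790 genes with values. They were chosen with earlier results of these data known. The 6 neighbours all lie on 1 side of Tdrd7, in the direction of higher coordinates. Another 6 measured genes, on both sides, lie as close and are given beside them. The Tdrd7 null group (labelled Tdrd7 -/-) and the control group each had 2 libraries, and each library held RNA pooled from 15 lenses taken at postnatal day 4. Neither group was given an agent, per the labels. The labels call the pools biological replicates and state neither the strain and sex of the mice, nor how the allele was made, nor which part of the gene it changes. Where nothing else is said, values are scaled reads: reads per gene over a factor that is shared by all genes of a library, and not corrected for the length of the gene. Errors are SD over n = 2 pools per genotype. In the reported fit, the SE, interval and p of limma do not measure the spread of these pools alone. They rest mostly on spread borrowed from other genes, with a prior of 11.1 degrees of freedom against 2 of the gene's own.

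TDRD7 is a protein with Tudor and LOTUS domains that sits in RNA granules, the bodies in which messenger RNAs are stored and turned over. Its loss causes cataract in humans and mice. Fiber cells, which make up most of the lens, lose their organelles and cannot renew their transcripts later, so control of messenger RNA during their differentiation is held to matter. Genes that lie next to a targeted gene are usually inherited together with the allele.

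Over the deposited genes the values summed to 39080159 and 33920522 reads in Tdrd7 null replicates 1 and 2, against 41096488 and 42767535 reads in control replicates 1 and 2. These sums are not the sequencing depth, and reads here and below were inferred from the even spacing of the values, since the smallest value of a library was 5 to 21 steps and none showed a single read. All 23 lens fiber markers and all 7 lens epithelium markers looked for were measured. Of the epithelium markers 3 were called, in both directions: Foxe3 (-0.43, limma adjusted p = 0.00215) and Slc2a1 (-0.27, 0.00533) fell and Gja1 (0.33, 0.00692) rose, and 0 were called by limma after correction for GC content and transcript length. Of the fiber markers limma called Lim2 (-0.25, adjusted p = 0.0413), which has no corrected value. Among all tested genes 18.0% were called before correction and 3.38% after it. Fiber markers summed to 6.702e+05 and 5.86e+05 in Tdrd7 null replicates 1 and 2, against 6.324e+05 and 6.519e+05 in control replicates 1 and 2. Epithelium markers summed to 600.1 and 583.1 in Tdrd7 null lenses, against 592.8 and 622.4 in control lenses. None of 10 retina, 6 macrophage, 6 cornea or 4 muscle markers had a row in the table. Of 8 endothelial markers 7 were listed, and their summed level was 21.36 and 26.02 in Tdrd7 null lenses, against 25.40 and 18.73 in control lenses. Of 6 pigment cell markers Tyrp1 alone was listed, at 1.78 and 1.69 in Tdrd7 null lenses, against 1.21 and 1.66 in control lenses. Of 6 blood markers Hbb-b1 alone was listed, at 0.905 and 1.01 in Tdrd7 null lenses, against 1.42 and 0.355 in control lenses. The part of these cells in the results was not tested.

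In GRCm38, Tdrd7 (ENSMUSG00000035517) runs on the plus strand of chromosome 4 from 45965334 to 46034761. Tmod1 (ENSMUSG00000028328) follows on the same strand after a gap of 4173 nt, from 46038935 to 46116032. Tstd2 (ENSMUSG00000035495, 46114746 to 46138694, minus strand) meets the end of Tmod1, and the 2 genes share 1287 nt of exonic sequence, 32.6% of that of Tmod1 and 23.1% of that of Tstd2. Ncbp1 (ENSMUSG00000028330, 46138613 to 46172403, plus strand) starts where Tstd2 starts, and shares 82 exonic nt with it. Xpa (ENSMUSG00000028329, 46155347 to 46196311, minus strand) overlaps the end of Ncbp1 by 17057 nt, of which 77 nt are exonic in both. Anp32b (ENSMUSG00000028333, 46450902 to 46472657) and Nans (ENSMUSG00000028334, 46489248 to 46503632), both on the plus strand, lie 416 and 454 kb from Tdrd7. Nans shares 1356 exonic nt, 29.6% of its own, with Trim14 on the opposite strand. The library kit does not mark strand, so the values of Tmod1, Tstd2 and Nans are uncertain by the reads of the shared stretches. The longest Anp32b transcript aligned over at least 300 nt, at 90% identity or more, to transcripts of 3 other genes, among them the processed copies Anp32b-ps1 and Gm5263, so its value is uncertain too. Tdrd7, Ncbp1 and Xpa had no such match.

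RefSeq gave promoter windows for 6 of the 7 genes, Nans being the exception, and 3 start sites for Tdrd7. A value per gene adds up transcripts from all of these starts, so the 2 kinds of Tdrd7 start are shown, together with that of Anp32b, a neighbour that moved the other way. Each stretch comes before the start site on the plus strand of chromosome 4, RefSeq on GRCm38, and stops where the first annotated exon begins. Capitals mark CG dinucleotides and the TATAAA motif on either strand.
Tdrd7 outer start, chr4:45965085-45965333: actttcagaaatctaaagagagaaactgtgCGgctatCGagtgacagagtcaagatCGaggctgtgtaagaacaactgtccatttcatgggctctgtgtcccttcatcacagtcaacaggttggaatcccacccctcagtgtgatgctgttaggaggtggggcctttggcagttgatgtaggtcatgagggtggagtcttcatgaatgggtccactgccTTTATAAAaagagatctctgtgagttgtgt
Tdrd7 second start, chr4:45972047-45972232: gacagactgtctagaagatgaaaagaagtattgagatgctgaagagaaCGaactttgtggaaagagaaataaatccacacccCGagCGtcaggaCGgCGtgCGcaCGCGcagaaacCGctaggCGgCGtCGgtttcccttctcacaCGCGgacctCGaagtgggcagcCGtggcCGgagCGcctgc
Anp32b start, chr4:46450676-46450901: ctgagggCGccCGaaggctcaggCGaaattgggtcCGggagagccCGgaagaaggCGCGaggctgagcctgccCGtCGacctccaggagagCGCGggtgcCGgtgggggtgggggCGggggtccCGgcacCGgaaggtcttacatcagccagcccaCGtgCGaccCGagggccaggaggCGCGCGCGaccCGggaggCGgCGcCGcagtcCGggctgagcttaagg
Over the full 250 nt, the outer Tdrd7 window held 3 CG dinucleotides and the second one, 6962 nt further on, held 28. The median over the 32851 windows of the RefSeq table was 6. The Anp32b window held 31. TATAAA occurred in the outer Tdrd7 window, where the 2 strands' matches overlap and begin 31 nt before the start, and in 12.4% of all windows. It had 1 match before the second Tstd2 start as well. GGGCGG, searched on both strands, had 4 matches before the Tmod1 start and 0 before the outer Tdrd7 start, and 32.7% of all windows held it. A match is a description of the sequence, not of binding.

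Tdrd7 fell in the Tdrd7 null lenses. It stood at 165 and 96.6 in Tdrd7 null replicates 1 and 2, against 1188 and 972 in control replicates 1 and 2. Both Tdrd7 null values lay far below both control values, so the targeted gene and the labels went together. On average 131 ± 48.4 in Tdrd7 null lenses stood against 1080 ± 152 in control lenses, which is 12.1% of the control level. On the log2 scale the change was -3.08 with an SE of 0.168 (adjusted p = 1.17e-06, limma), the largest absolute change of the 10696 genes tested. The Tdrd7 null libraries still held 6208 and 3432 reads of the gene, so what remained was not at the limit of detection. Because the changed part of the gene is not given, reads outside it could not be set apart. Per kb of the longest transcript, Tdrd7 ranked 524 and 928 among measured genes in the Tdrd7 null libraries, against 67 and 85 in the control libraries. In a whole lens, fewer cells of a type and less RNA per cell cannot be told apart. With a robust prior, which lets single genes keep a larger spread, the adjusted p was 0.0555 at the same fold change.

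**Figure D1:**
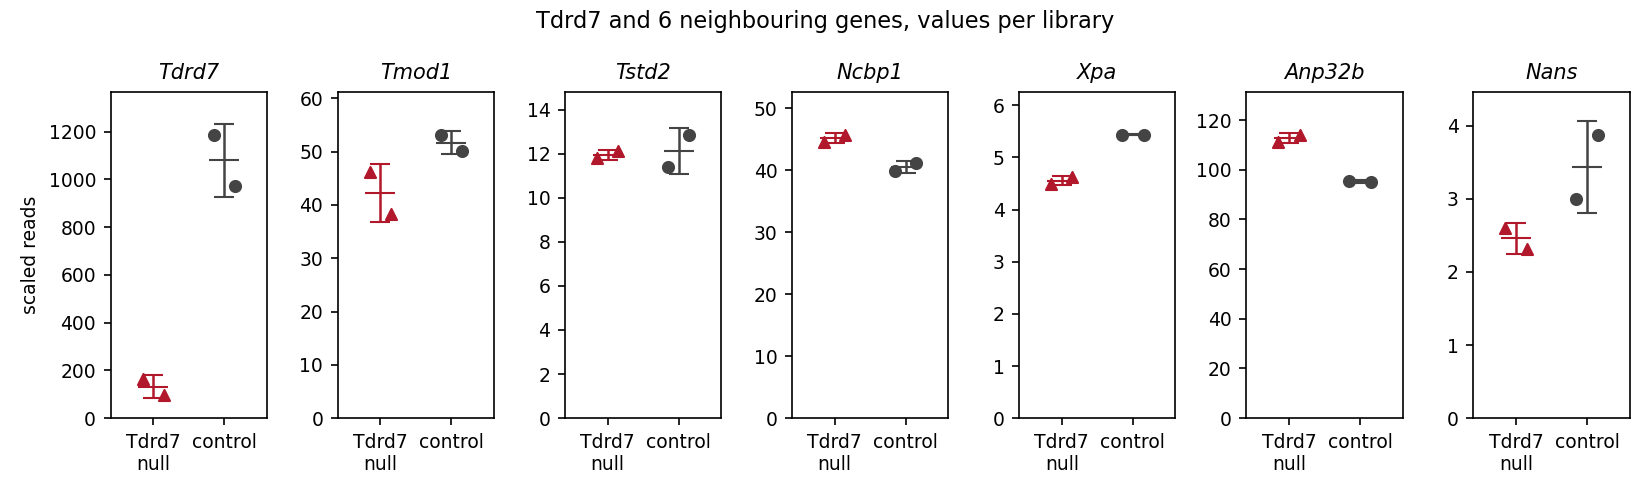
Scaled reads of Tdrd7 and its 6 neighbours in each library (triangles, Tdrd7 null; circles, control), with the mean and SD of 2 libraries; each panel has its own axis, starting at 0. Tdrd7 stands at 165 and 96.6 in Tdrd7 null lenses against 1188 and 972 in control lenses, and the groups overlap for Tstd2.

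Tmod1, the nearest neighbour, also fell. It encodes tropomodulin 1, which caps the slow-growing ends of actin filaments in the spectrin-actin membrane skeleton of lens fiber cells. Its values were 46.1 and 38.4 in Tdrd7 null replicates 1 and 2, against 53.2 and 50.1 in control replicates 1 and 2. The groups did not overlap, and the lowest library was Tdrd7 null replicate 2, as for Tdrd7. That library was also the lowest for the summed fiber markers (5.86e+05), so this is not particular to these genes. How many other genes share it was not counted. The means were 42.3 ± 5.48 in Tdrd7 null lenses and 51.7 ± 2.17 in control lenses, or 81.8% of the control level. On the log2 scale Tmod1 changed by -0.29 with an SE of 0.0770 (adjusted p = 0.0227, limma), larger in size than that of 87.8% of tested genes. The call was lost when Tdrd7 null replicate 2, control replicate 1 or control replicate 2 was left out. It was kept without Tdrd7 null replicate 1. Each of these fits left 1 library in a genotype, so a lost call can also reflect the smaller sample. The log2 fold change was -0.16, -0.25, -0.33 and -0.42 in these fits, in that order. After a correction that removed the dependence of values on GC content and transcript length within each library it was -0.26 (limma adjusted p = 0.0672).

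Tstd2, which encodes a protein with a rhodanese-like sulfurtransferase domain, did not pass. It had 11.8 and 12.1 in Tdrd7 null lenses, against 11.4 and 12.9 in control lenses, so the Tdrd7 null values lay between the control values. The log2 fold change was -0.02, with a 95% interval of -0.19 to 0.16 (limma adjusted p = 0.905). Its exons share reads with those of Tmod1, and its direction flipped in 2 alternatives. It stood at 0.06 without control replicate 2 and at 0.00 without Tdrd7 null replicate 1.

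Ncbp1 encodes the large subunit of the nuclear cap-binding complex, which holds the capped end of new transcripts. It had 44.6 and 45.8 in Tdrd7 null lenses, against 39.8 and 41.2 in control lenses. Both Tdrd7 null libraries lay above both control libraries, but the difference did not pass (log2 fold change 0.15, 95% interval 0.03 to 0.28, limma adjusted p = 0.0797). Xpa, whose gene body overlaps that of Ncbp1, encodes a DNA damage recognition factor of nucleotide excision repair. It had 4.50 and 4.62 in Tdrd7 null lenses, against 5.43 and 5.44 in control lenses. The Tdrd7 null values lay below the control values, with a log2 fold change of -0.21 (95% interval -0.42 to -0.0037, limma adjusted p = 0.144), and did not pass. The Xpa values rest on 169 and 164 reads in Tdrd7 null lenses and on 225 and 230 reads in control lenses. The 95% Poisson intervals, which cover counting error only, ran from 3.84 to 5.23 in Tdrd7 null replicate 1 and from 4.74 to 6.18 in control replicate 1. These 2 intervals overlapped, though an overlap of intervals is not a test of the difference between libraries.

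Anp32b rose in the Tdrd7 null lenses. It encodes an acidic leucine-rich nuclear protein that acts as a histone chaperone. It had 111.2 and 114.2 in Tdrd7 null lenses, against 95.57 and 94.97 in control lenses, with groups well apart. The means were 113 ± 2.11 in Tdrd7 null lenses and 95.3 ± 0.427 in control lenses. On the log2 scale Anp32b changed by 0.24 with an SE of 0.0516 (adjusted p = 0.00891, limma), and by 0.25 with the GC and length trend removed (limma adjusted p = 0.0139). It was not called without control replicate 1 (0.24, limma adjusted p = 0.0631) or without control replicate 2 (0.235, 0.0676).

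Nans encodes N-acetylneuraminic acid synthase, which makes the phosphorylated precursor of sialic acid, and was the lowest of the 7. It had 2.61 and 2.31 in Tdrd7 null lenses, against 2.99 and 3.88 in control lenses. The Tdrd7 null values lay below the control values, but the difference did not pass (log2 fold change -0.35, 95% interval -0.63 to -0.08, limma adjusted p = 0.0696). The values rest on 98 and 82 reads in Tdrd7 null lenses and on 124 and 164 reads in control lenses. With a pseudocount of 5 in place of 1 the log2 fold change was -0.18, and without control replicate 2 it was -0.21. It was called with the replicate number as a block (-0.35, limma adjusted p = 0.0398), where the variance came wholly from the trend over all genes. It was also called with scaling to the library total without crystallins (-0.38, limma adjusted p = 0.0488). Without Tdrd7 null replicate 1 the log2 fold change of Nans was -0.42.

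All 7 genes passed the filter of a mean of at least 1, and 3 of them were called at an adjusted p under 0.05, where 18.0% of the 10696 tested genes were. Anp32b was the 1 gene called higher, where 10.1% of tested genes were, and Tdrd7 and Tmod1 were the 2 called lower, where 7.88% were. This split of the background turned over with scaling to the library total without crystallins, which gave 766 genes higher and 1262 lower (37.8% of calls higher), where the reported fit gave 1077 higher and 843 lower (56.1%). With that scaling Anp32b (0.20), Tmod1 (-0.33) and Tdrd7 (-3.12) were still called in the same directions. Tdrd7 is the targeted gene, so 2 of 6 neighbours remain to be set against that background. With GC content and length corrected, Tdrd7 and Anp32b were called, where 3.38% of 10656 genes were. The groups did not overlap in 6 of the 7 genes, where they did not overlap in 61.5% of all tested genes. The median absolute log2 fold change was 0.23 over the 6 neighbours and 0.13 over all tested genes. Over the 6 other genes that lie as close to Tdrd7 it was 0.086, and 1 of these 6 was called (16.7%). The 6 neighbours were chosen with earlier results of these data known, so their shares and median are a description and not a test. With 2 pools per genotype, the smallest two-sided p of an exact permutation test is 0.333, and the 6 genes with separate groups had that p. With GC content and length corrected together 360 of 10656 genes were called, against 1920 of 10696 without. GC content was close to the median of tested genes (49.6%) in all 7, from 48.4% in Tstd2 to 51.8% in Anp32b.

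Per kb of the longest transcript, the order of levels differed between the genotypes. In Tdrd7 null lenses Anp32b came first at 65.7 ± 1.23 scaled reads per kb and Tdrd7 second at 35.22 ± 13.04. Ncbp1 (15.0 ± 0.269) and Tmod1 (13.4 ± 1.74) followed, and they differed by less than the SD of Tmod1. Xpa had 3.67 ± 0.0696, Tstd2 3.21 ± 0.0613 and Nans 0.944 ± 0.0810 scaled reads per kb there. In control lenses Tdrd7 came first at 290.7 ± 40.96, before Anp32b (55.5 ± 0.249), Tmod1 (16.4 ± 0.687) and Ncbp1 (13.5 ± 0.329). Xpa (4.38 ± 0.00729), Tstd2 (3.25 ± 0.281) and Nans (1.32 ± 0.241) came last in control lenses too. Apart from Ncbp1 and Tmod1 in Tdrd7 null lenses, neighbours in the order lay further apart than either SD.

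Genes on the other side of Tdrd7 and between the 7 were measured too. On the other side of Tdrd7 the nearest measured gene was E230008N13Rik (Ccdc180 in GENCODE), 14.6 kb away. It had 4.28 and 3.66 in Tdrd7 null lenses, against 3.50 and 4.56 in control lenses, overlapping groups with a log2 fold change of -0.01 (limma adjusted p = 0.959). Between Xpa and Anp32b lies 5830415F09Rik (Trmo in GENCODE), at 1.36 and 0.873 in Tdrd7 null lenses, against 1.57 and 1.35 in control lenses. It did not pass (-0.23, limma adjusted p = 0.315).

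Of 15 other tested genes within 1 Mb 3 fell and 0 rose, which is 20%. Among all tested genes 18.0% were called, 10.1% higher and 7.88% lower. The 3 that fell were Shb, an adaptor of tyrosine kinase signalling, at a log2 fold change of -0.28 (limma adjusted p = 0.0143), Frmpd1 at -0.57 (0.00604) and Fbxo10 at -0.40 (0.00668). Frmpd1 had 3.78 and 3.66 in Tdrd7 null lenses, against 6.78 and 5.32 in control lenses. With GC content and length corrected none of the 15 was called by limma, where 3.38% of all tested genes were. Shb, Frmpd1 and Fbxo10 then stood at -0.08, -0.41 and -0.25. The GC content of their longest transcripts was 61.4% in Shb, 55.7% in Frmpd1 and 55.9% in Fbxo10. The other 12 were Grhpr, Zbtb5, Polr1e, Tomm5, Trmt10b, Exosc3, Dcaf10, Slc25a51, Aldh1b1, E230008N13Rik, 5830415F09Rik and Anks6, and their log2 fold changes ran from -0.31 in Anks6 to 0.13 in Dcaf10. A further gene, 1700055D18Rik, did not pass the filter on low values.

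**Figure D2:**
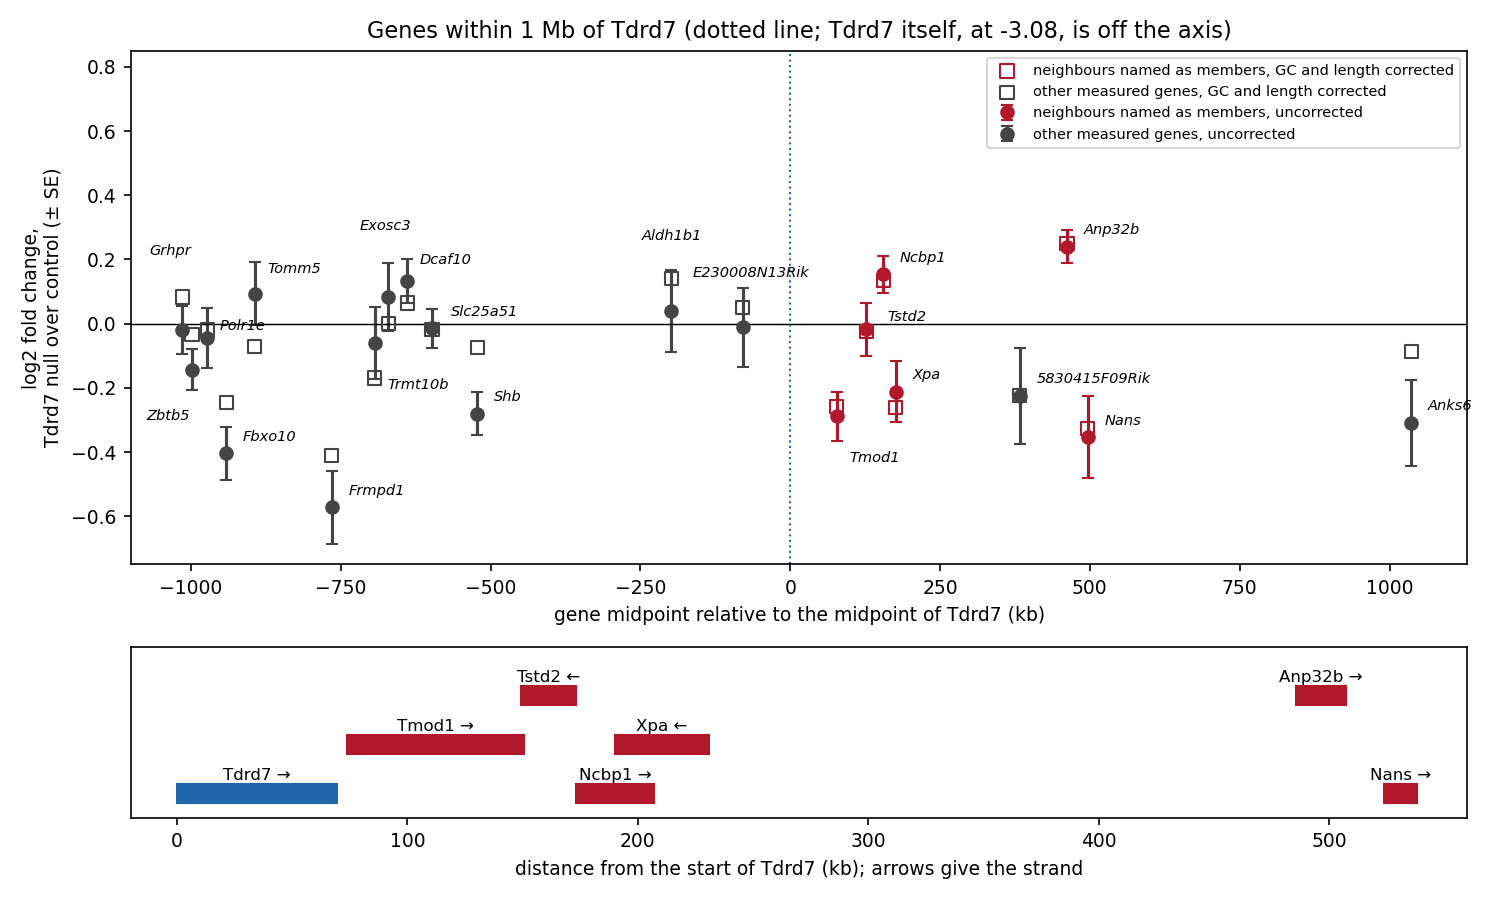
Upper panel, log2 fold change of Tdrd7 null over control for tested genes within 1 Mb, by position relative to Tdrd7 in kb (filled circles with SE, uncorrected; open squares, corrected for GC content and length; red, the 6 neighbours; grey, other genes). Lower panel, the 7 genes to scale in kb from the start of Tdrd7. Tmod1 at -0.29 and Anp32b at 0.24 stand at -0.26 and 0.25 after correction, while Shb at -0.28 stands at -0.08.

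Taking the 7 genes apart, 5 of 25 tested genes under 2 Mb from Tdrd7 were called (20%), and 0 of 25 after correction. From 2 to 5 Mb 8 of 42 were called (19%), from 5 to 10 Mb 2 of 20 (10%) and from 10 to 20 Mb 5 of 57 (8.77%). Beyond 20 Mb 118 of 528 genes of chromosome 4 were called (22.3%), and on other chromosomes 1779 of 10017 (17.8%). The median log2 fold change was -0.0185 under 2 Mb and -0.00497 on other chromosomes. On the scale of log2(scaled reads + 1), 1 gene of chromosome 4 besides Tdrd7 was called at 1.5-fold or more. That scale understates the change of low genes. Frmpd1, called too, missed the cut at -0.57, with means of 3.72 in Tdrd7 null and 6.05 in control lenses. The gene that made the cut was Cited4, a transcriptional co-regulator 74.6 Mb away. It had 2.74 and 2.37 in Tdrd7 null lenses, against 4.56 and 4.23 in control lenses (log2 fold change -0.60, limma adjusted p = 0.00448; -0.37 and 0.0733 after correction).

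**Figure D3:**
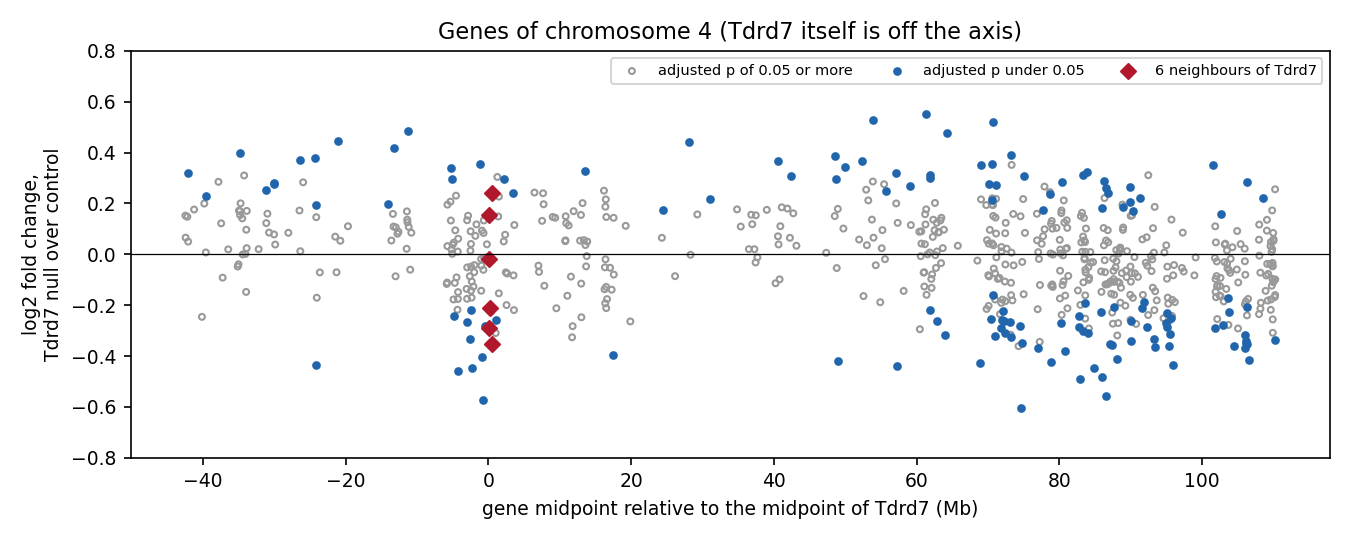
Log2 fold change of Tdrd7 null over control for 678 tested genes of chromosome 4, by distance from Tdrd7 in Mb (blue, adjusted p under 0.05; open, above it; red diamonds, the 6 neighbours). Values run from -0.60 to 0.55, and the neighbours, between -0.35 and 0.24, lie within that range.

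No other gene changed as much as Tdrd7, so none could lie close to it by the measure of likeness used. Likeness was taken as the root mean square difference of log2 values over the 4 libraries, each gene centred on its own mean. It counts the size of a change along with its shape over the libraries. The nearest to Tdrd7, members apart, were the predicted gene Gm10073 (0.986), the transporter Abcc6 (1.09), Avp, which encodes vasopressin (1.11), the small heat shock protein Hspb1 (1.11) and the ribosomal protein gene Rpl17 (1.12), whose log2 fold changes ran from -1.11 to -0.86. After Tdrd7, Gm10073 fell furthest of all tested genes. Ribosomal protein genes such as Rpl17 have many processed copies in the genome, so its value is uncertain. The nearest to Tmod1 were Hps1 (0.00726), Fam126a (0.00968) and Lrdd (0.0116). Hps1 had 3.14 and 2.45 in Tdrd7 null lenses, against 3.79 and 3.45 in control lenses, and of these 3 limma called Fam126a alone (log2 fold change -0.29, adjusted p = 0.0266).

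Genes related to the 7 by family or function were counted in 8 lists. They are to be read beside the 18.0% of all tested genes that were called, 10.1% higher and 7.88% lower. The median log2 fold change of all tested genes was -0.0052. After correction 3.38% of all genes were called, so 0 calls in a short list is near that share. Among 19 measured genes with Tudor or LOTUS domains other than Tdrd7, 3 rose and 2 fell (median log2 fold change 0.01), and 0 were called by limma after correction. Marf1, a LOTUS domain protein of oocyte RNA control, rose (46.29 and 53.36 in Tdrd7 null lenses, against 41.6 and 42.8 in control lenses, log2 fold change 0.23, and 0.19 after correction), as did Arid4b (0.23) and Tdrkh (0.18), while the histone demethylases Kdm4b (-0.32) and Kdm4a (-0.22) fell. Of 30 measured RNA granule proteins 9 rose and 1 fell (median 0.08), and after correction 0 rose and 1 fell by limma. Tial1 (0.31), Tia1 (0.31), Fmr1 (0.30) and the helicase Ddx6 (0.23) rose before correction and stood at 0.17, 0.17, 0.11 and 0.14 after it, and Edc4, a scaffold of decapping, was the 1 that fell (-0.21). The gene called lower after correction was Atxn2, named after its values were seen (-0.28, limma adjusted p = 0.0158; -0.18 and 0.0645 before).

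Of 21 measured partners of tropomodulin in the actin and spectrin skeleton 1 rose and 3 fell (median 0.02). Ank3, an ankyrin, fell by 0.20 on the log2 scale, and stood at -0.17 after correction (limma adjusted p = 0.101). Another 2 members, protein 4.1 family genes, moved in opposite directions, Epb41 at 0.18 and Epb41l1 at -0.25 (Epb4.1 and Epb4.1l1 in the table), and after correction they stood at 0.08 and -0.08.

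Of 18 measured partners of Ncbp1 in the cap-binding and export complexes 5 rose and 1 fell (median 0.03), and 1 rose after correction. Ncbp2, the small subunit of the same complex, had 32.4 and 35.3 in Tdrd7 null lenses, against 27.4 and 28.4 in control lenses (log2 fold change 0.27, limma adjusted p = 0.0145). After correction it stood at 0.14 (limma adjusted p = 0.216). Thoc2 (0.34), Thoc7 (0.30) and Thoc1 (0.24) of the export complex and the cytoplasmic cap-binding protein Eif4e (0.27) rose too before correction, and Zc3h18 fell (-0.32). The gene called after correction was Ctif, a cap-bound translation factor named after its values were seen (0.39, limma adjusted p = 0.0257; 0.22 and 0.0986 before). Of 27 measured nucleotide excision repair genes besides Xpa 5 rose and 0 fell (median 0.01), and 0 were called by limma after correction. Those that rose were Cetn2 (0.40), the TFIIH-associated kinase subunits Ccnh (0.40) and Mnat1 (0.30), and the TFIIH subunits Gtf2h1 (0.25) and Gtf2h5 (0.21). The median GC content of the longest transcripts was 46.4% in this list, against 49.6% over all tested genes.

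Of 9 measured ANP32, SET and related histone chaperone genes besides Anp32b 7 rose and 0 fell (median 0.28), and 0 were called by limma after correction, with a median of 0.17 then. Npm1 had 126 and 134 in Tdrd7 null lenses, against 102 and 99.2 in control lenses (log2 fold change 0.36). Ptma (0.33), Nap1l1 (0.29) and the Anp32b paralog Anp32e (0.28) rose as well, and after correction these 4 stood at 0.17, 0.19, 0.11 and 0.17. The other 3 that rose were Set (0.28), Anp32a (0.22) and Nap1l4 (0.22), which stood at 0.21, 0.17 and 0.21 after correction. Npm1, Ptma and Set have processed copies in the genome, so their values are uncertain. The median GC content was 46.3% in this list. Of 13 measured genes of sialic acid synthesis and transfer 1 rose and 1 fell (median -0.03), and 0 rose and 1 fell after correction. St8sia2, a polysialic acid transferase, had 27.9 and 28.8 in Tdrd7 null lenses, against 35.7 and 35.6 in control lenses. It fell by 0.32 on the log2 scale (limma adjusted p = 0.00452), and Npl, a lyase that breaks sialic acid down, rose (0.25, limma adjusted p = 0.00958). Of 3 measured sulfurtransferases other than Tstd2 Tst fell (-0.27, limma adjusted p = 0.0429), and 0 were called by limma after correction, where Tst stood at -0.21 (limma adjusted p = 0.179).

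**Figure D4:**
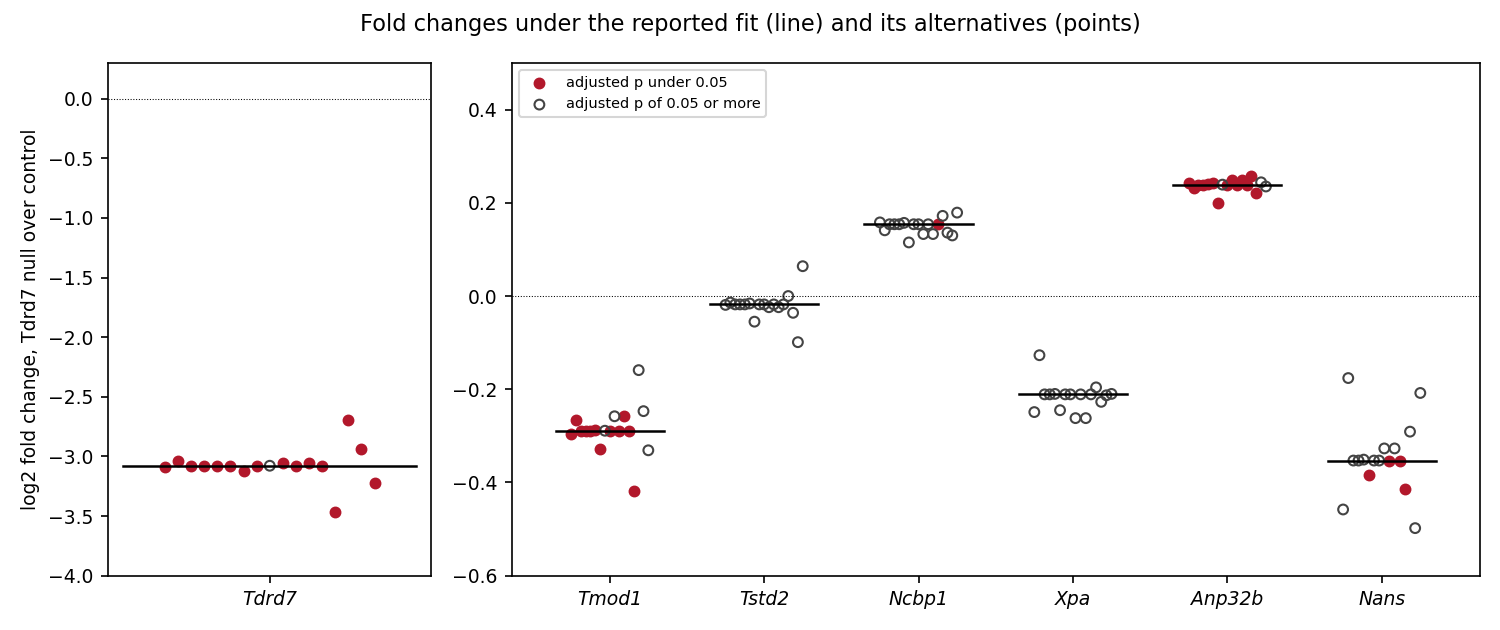
Log2 fold change of Tdrd7 null over control for the 7 genes in the reported fit (line) and in its alternatives (points; red, adjusted p under 0.05; open, above it), with Tdrd7 on an axis of its own. Tdrd7 ranges from -3.46 to -2.69 and keeps its direction in all 17 alternatives, as do Tmod1 (-0.42 to -0.16) and Anp32b (0.20 to 0.26), while Tstd2 lies on both sides of 0.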

How the data were processed

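RNA of pooled mouse lenses was sequenced after oligo-dT selection with a TruSeq version 2 kit, as paired reads of 75 nt, per the series' design text. Per the submitters' processing notes, the tools were TopHat2 2.0.9, Trimmomatic, Cuffnorm and Cufflinks, and the build was mm10 (GRCm38). The notes give these tools no role, so which of them, if any, made the deposited values is not known here. Signal values of 10790 genes in 4 libraries made up the deposited table. The values of a library were whole multiples, to within 0.001 reads, of a step (0.0266 and 0.0282 in Tdrd7 null, 0.0241 and 0.0237 in control replicates 1 and 2), which is how whole reads over a shared factor look. Replicates differed beyond sampling noise, and more so in Tdrd7 null lenses. The chi-square per gene between replicates was 18.7 in Tdrd7 null and 7.1 in control lenses, with medians of 2.35 and 1.07.

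Genotypes were compared with limma 3.58.1 (R 4.3.3) on log2(scaled reads + 1), which understates the change of low genes, for 10696 genes with a mean of at least 1. The fit had an intensity trend, two-sided tests and Benjamini-Hochberg adjustment over all tested genes. Transcript length and GC content were those of each gene's longest GENCODE M21 transcript (10750 genes), and their trends were removed per library with splines (5 degrees of freedom each). Similar transcripts were found with BLAST 2.17.0. Permutation tests were exact. The fit was tested on simulated data. The rule for named genes took the 7 members, measured genes within 1 Mb, genes of chromosome 4 called at 1.5-fold, the nearest patterns to Tdrd7 (5) and Tmod1 (3), and up to 4 genes per list by smallest p. Members and lists were chosen with earlier results of these data known. A result that this rule would name is not reported here.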

Additional observations from a re-analysis of the deposited data

How the results depend on the processing

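Of 17 alternatives, limma called Tdrd7 in 16, Anp32b in 14 and Tmod1 in 12, and each kept its direction in all of them. These alternatives are not independent of one another. Scaling by a trimmed mean or by the median of ratios used factors from 0.999 to 1.002, so these fits nearly repeat the reported one. The 17 include the crossed pairing given below, which was added once the data had been seen. The robust prior gave Tdrd7 -3.08 without a call. The prior without the intensity trend called 16 genes in place of 1920 and 1 of the 7 in place of 3, and left Tmod1 (-0.29) and Anp32b (0.24) uncalled and 0 genes in place of 5 called under 2 Mb. With GC content and length corrected, 360 genes, 0 under 2 Mb and not Tmod1 (-0.26) were called. Leaving out 1 library gave 431 to 2196 called genes, 1 to 4 of the 7 and 0 to 8 genes under 2 Mb. Log2 fold changes then ran from -3.46 to -2.69 for Tdrd7, from -0.42 to -0.16 for Tmod1, from 0.22 to 0.26 for Anp32b, from -0.099 to 0.064 for Tstd2 and from -0.50 to -0.21 for Nans. Nans was called with the library total without crystallins (-0.38).

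The replicate number of the labels paired the samples in name only, since nothing says what it marks and deviations of same-numbered libraries were correlated at -0.151 across genes. With that replicate block 2117 genes were called, and Nans (-0.35) was among them. This fit and the crossed one below had 1 residual degree of freedom and an infinite prior. Their variances came wholly from the trend over all genes, so their calls do not measure a gene's own spread between pools. With block and correction together 608 genes and 1 under 2 Mb were called, Tmod1 again included. A crossed pairing, added once the data had been seen, called 3036 genes and 5 of the 7, with Ncbp1 (0.15) and Nans (-0.35) added.

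Among other genes named, directions flipped for values near 0. Under the GC and length correction, with and without the block, Grhpr stood at 0.083, Tomm5 at -0.071 and E230008N13Rik at 0.051. With 1 library left out, Grhpr ranged from -0.063 to 0.026, Polr1e from -0.105 to 0.015, Slc25a51 from -0.063 to 0.033, Aldh1b1 from -0.066 to 0.144 and E230008N13Rik from -0.165 to 0.142. The causes were not tested. Xpa and Nans have no value at a minimum mean of 5, and the planned count model on recovered reads was not run. Depth limits Xpa and Nans most.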

Other observations

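Libraries of 1 genotype differed more in Tdrd7 than in most genes, a comparison chosen after its values were seen. On the log2 scale Tdrd7 null replicate 2 lay 0.77 below replicate 1 (-0.77), a larger difference than in 99.8% of the 10696 tested genes. Control replicate 2 lay below replicate 1 as well (-0.29), a larger difference than in 96.2% of genes. For Tmod1 the same differences were -0.26 in Tdrd7 null lenses, larger than in 91.3% of genes, and -0.08 in control lenses, larger than in 53.0%. The median absolute difference between replicates was 0.084 in Tdrd7 null lenses and 0.079 in control lenses. For Nans they were -0.12 in Tdrd7 null lenses and 0.29 in control lenses, where the control values rest on 124 and 164 reads.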
